A study of Mus musculus with 3 samples.

Results

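The 9 genes described here belong to the machinery that attaches, edits or reads the ubiquitin chains that carry signals to NF-kappaB. They are Tnfaip3, Cyld, Otulin, Tnip1, Tnip2, Tnip3, Rnf31, Rbck1 and Sharpin. They were chosen by name, for their known biochemical roles, out of 55536 mouse genes in the deposited gene tables. Earlier results of these data were known when they were chosen, so comparisons of the members with all genes are descriptions and not independent tests. All of the libraries came from bone-marrow-derived macrophages of C57BL/6J mice, for which age and sex were not collected. The cells received 100 ng/ml Lipid A, the lipid part of bacterial lipopolysaccharide and a toll-like receptor 4 agonist, for 12 h. They were kept without it for 12 h, and then met 100 ng/ml Lipid A a second time for 120 min. RNA of the cytosolic fraction was depleted of ribosomal RNA and sequenced in 3 libraries, labelled biological replicates 1, 2 and 3. Naive or singly stimulated cells were not analysed here, so every value below is a level within 1 condition and not a response to Lipid A.

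When toll-like receptor 4 is engaged, ligases build ubiquitin chains linked through lysine 63 or through methionine 1 (linear chains) on signalling proteins, and these chains hold the kinases that release NF-kappaB. The linear chains are made by the LUBAC complex of HOIP (Rnf31), HOIL-1 (Rbck1) and SHARPIN (Sharpin). OTULIN (Otulin) cleaves linear chains, CYLD (Cyld) cleaves linear and lysine 63-linked chains, and A20 (Tnfaip3) both edits chains and binds linear ones. The A20-binding proteins are ABIN-1 (Tnip1), ABIN-2 (Tnip2) and ABIN-3 (Tnip3). Of these, ABIN-1 binds ubiquitin and links A20 to its targets. Tnfaip3 is a classic NF-kappaB target gene, and together with Tnip1 it is known as a negative feedback arm of this pathway in macrophages.

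Promoter windows from RefSeq (assembly GRCm38.p6, from 250 bases before to 50 bases after each start) were matched by symbol for 8 of the 9 genes, all but Sharpin. The kappaB consensus is a 10-base motif bound by NF-kappaB dimers. Here it was taken as GGGRNNYYCC (R is A or G, Y is C or T, N is any base) and searched on both strands. It stood in a window of 4 of these 8 genes, compared with 8.46% of all 32851 windows of that length and 9.55% of the 27025 genes with a window. The 250 bases before the start of those 4 genes are given 5′ to 3′ on the gene's strand, because they show where the motif lies in the 3 most abundant members and in Cyld. Capitals mark the bases covered by matches.
Tnfaip3: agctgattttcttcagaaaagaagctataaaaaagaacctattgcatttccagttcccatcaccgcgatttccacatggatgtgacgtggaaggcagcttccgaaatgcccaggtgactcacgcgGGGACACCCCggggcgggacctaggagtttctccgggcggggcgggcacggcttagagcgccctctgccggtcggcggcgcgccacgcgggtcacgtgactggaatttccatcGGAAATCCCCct
Tnip1: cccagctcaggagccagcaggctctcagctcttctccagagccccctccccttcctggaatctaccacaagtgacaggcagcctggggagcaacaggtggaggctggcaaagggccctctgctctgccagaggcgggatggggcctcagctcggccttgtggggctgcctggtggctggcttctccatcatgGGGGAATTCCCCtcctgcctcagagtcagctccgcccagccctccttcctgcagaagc
Tnip3: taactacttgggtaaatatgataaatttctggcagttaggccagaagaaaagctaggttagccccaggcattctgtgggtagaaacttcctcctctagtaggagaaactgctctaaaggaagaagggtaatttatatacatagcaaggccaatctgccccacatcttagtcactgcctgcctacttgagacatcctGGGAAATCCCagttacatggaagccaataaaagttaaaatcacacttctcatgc
Cyld: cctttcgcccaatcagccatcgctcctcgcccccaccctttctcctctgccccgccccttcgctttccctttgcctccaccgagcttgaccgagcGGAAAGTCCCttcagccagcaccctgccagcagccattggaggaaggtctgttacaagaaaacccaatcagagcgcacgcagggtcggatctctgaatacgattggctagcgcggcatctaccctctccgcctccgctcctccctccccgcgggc
The stretches lie at chr10:19015411-19015660 (minus strand) for Tnfaip3, chr11:54962941-54963190 (minus strand) for Tnip1, chr6:65590148-65590397 (plus strand) for Tnip3 and chr8:88696778-88697027 (plus strand) for Cyld. In Tnfaip3 the motif occurred at bases 125 to 116 and again at bases 12 to 3 before the start. In Tnip1 it formed a palindrome of 12 bases, at bases 58 to 47 before the start, which holds 3 overlapping matches. Tnip3 had a single match at bases 54 to 45, and Cyld a single match farther out, at bases 155 to 146. The windows of Tnip2, Otulin and Rnf31, both windows of Rbck1 and the second window of Tnfaip3 held no match to these letters. A match is a match of letters only, and the libraries hold no measurement of NF-kappaB binding.

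The transcripts that begin at these windows can be read from the deposited transcript table. Transcripts starting within 100 bases of the RefSeq start made up 68.3% ± 2.19 (SD, n = 3) of the TPM of Tnfaip3, and the second start, whose window had no match, gave 18.2% ± 1.2. For Tnip1 the share was 91.7% ± 1.71, and for Cyld it was 78.2% ± 4.39. For Tnip3, 64.4% ± 2.08 of the TPM began at the window shown. Most of that was Tnip3-205 (42.6% ± 5.11), annotated as a retained intron transcript, and the coding Tnip3-201 gave 19.8% ± 3.95. A further 34.3% ± 2.72 came from the coding Tnip3-207, which starts far upstream at position 65525385 of chromosome 6.

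The gene tables held 29273913, 64712406 and 37602753 expected counts on mouse genes in replicates 1, 2 and 3, and the members' own counts ran from 398 (Tnip2, replicate 1) to 38482 (Tnfaip3, replicate 2). Levels are given in TPM, a transcript abundance normalised for transcript length and library size. All 8 macrophage markers were at 1 TPM or more in every library (summed 4553, 4611 and 4362 TPM), whereas 0 of 5 T and B cell markers were (summed 0.08, 0.03 and 0.07 TPM, with Cd3g at 0). Of 5 neutrophil markers, S100a8 and S100a9 passed 1 TPM (means of 2.08 and 3.48), and Ly6g stood between 0 and 0.01. Dendritic, fibroblast, endothelial and erythroid markers were all under 1 TPM. Replicate 3 stood apart in the nuclear-retained and mitochondrial RNAs that were looked up. The 4 nuclear-retained RNAs summed to 318, 175 and 1993 TPM in replicates 1, 2 and 3. Most of this was Malat1 (191, 133 and 952 TPM) and Gm26917 (112.5, 31.2 and 985 TPM), while Kcnq1ot1 was at 0.18 TPM or below. The 4 mitochondrial transcripts summed to 595, 708 and 1467 TPM. Nuclear RNA as a whole was not measured. Replicate 1 stood apart in composition, since protein-coding genes took 32.5% of its TPM, against 26.5% and 27.1% in replicates 2 and 3. The 3 labels cite the same donor entry, which is the strain, and name no separate animals or cultures, so the spread between them may be technical. In bulk RNA, fewer cells with a transcript and less of it per cell cannot be told apart.

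Among the enzymes that remove or edit chains, Tnfaip3 was far above Otulin and Cyld. Tnfaip3 (ENSMUSG00000019850.11, mm10, chromosome 10, 19000910 to 19015657, minus strand) stood at 159, 87.7 and 77.1 TPM in replicates 1, 2 and 3, a mean of 108 ± 44.6 TPM. Replicate 1 was high and the other replicates were close to each other. The interval deposited with the TPM of replicate 1, whose level is not stated, ran from 152 to 158 TPM and left out the point value just above it. Of the 27 values of the 9 genes, 2 lay outside their deposited intervals, this one and Tnip3 in the same replicate. Otulin (ENSMUSG00000046034.8, chromosome 15, 27542635 to 27630693, minus strand) stood at 16.1, 12.3 and 11.0 TPM, mean 13.1 ± 2.62. Cyld (ENSMUSG00000036712.15, chromosome 8, 88697028 to 88751945, plus strand) stood at 10.4, 7.13 and 8.70 TPM, mean 8.73 ± 1.61. All of the Tnfaip3 values lay above all of those of both other enzymes. Taken within each library on the log2(TPM + 1) scale, Tnfaip3 exceeded Cyld by 3.82, 3.45 and 3.01, mean 3.43 ± 0.41. It exceeded Otulin by 3.23, 2.74 and 2.70, mean 2.89 ± 0.30. Both differences were several times the spread between libraries.

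The 3 A20-binding proteins covered almost the whole range of the members. In TPM over all transcripts, Tnip3 was the highest and Tnip2 the lowest of all 9. Tnip3 (ENSMUSG00000044162.12, chromosome 6, 65525313 to 65634040, plus strand) stood at 218, 187 and 182 TPM, mean 196 ± 19.7, above 97.8% of the 8612 protein-coding genes detected at 1 TPM in every library. Tnip1 (ENSMUSG00000020400.17, chromosome 11, 54910785 to 54962917, minus strand) stood at 90.5, 82.1 and 72.2 TPM, mean 81.6 ± 9.17. Tnip2 (ENSMUSG00000059866.13, chromosome 5, 34496087 to 34513991, minus strand) stood at 5.23, 5.40 and 5.89 TPM, mean 5.51 ± 0.343. The ranges of the 3 genes did not overlap. On the log2(TPM + 1) scale Tnip3 exceeded Tnip1 by 1.25 ± 0.07 and Tnip2 by 4.92 ± 0.21. The first of these differences shrank to 0.40 when only protein-coding transcripts were summed, an alternative chosen after seeing the data and taken up with the transcripts below. Tnfaip3 and its partner Tnip1 overlapped in range: their difference was 0.81 in replicate 1 and 0.09 in each of replicates 2 and 3, mean 0.33 ± 0.41, or 0.09 without replicate 1.

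In TPM summed over all transcripts, the subunits of LUBAC were at moderate and similar levels. Over protein-coding transcripts alone Sharpin was the lowest of them, at a mean of 6.31 TPM. Sharpin, the adaptor subunit (ENSMUSG00000022552.16, chromosome 15, 76347040 to 76351111, minus strand), stood at 26.8, 22.7 and 26.1 TPM, mean 25.2 ± 2.17. Rnf31, which encodes the catalytic subunit HOIP (ENSMUSG00000047098.18, chromosome 14, 55591708 to 55603693, plus strand), stood at 24.3, 15.3 and 16.3 TPM, mean 18.6 ± 4.93. Rbck1, encoding HOIL-1 (ENSMUSG00000027466.15, chromosome 2, 152316334 to 152332653, minus strand), stood at 17.3, 13.0 and 14.1 TPM, mean 14.8 ± 2.24. The range of Rnf31 overlapped those of Sharpin and of Rbck1. Sharpin exceeded Rnf31 by 0.44 ± 0.27 on the log2(TPM + 1) scale over all transcripts, and the direction turned to -0.99 over protein-coding transcripts alone. Rbck1 stood below Rnf31 by -0.29 ± 0.15, which became 0.06 over protein-coding transcripts. Otulin, which opposes LUBAC, differed from Rnf31 by -0.46 ± 0.15, a gap that narrowed to -0.18 in the second quantification and to -0.07 over protein-coding transcripts. Among the LUBAC genes the order thus depended on which transcripts were summed.

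In TPM over all transcripts, the order of the 9 levels was the same in each of the 3 libraries. From high to low it was Tnip3, Tnfaip3, Tnip1, Sharpin, Rnf31, Rbck1, Otulin, Cyld and Tnip2. Of the 8 neighbouring pairs, 4 had ranges that did not overlap, namely Tnip3 over Tnfaip3 (lowest 182 against highest 159 TPM), Tnip1 over Sharpin, Otulin over Cyld (lowest 11.0 against highest 10.4 TPM) and Cyld over Tnip2 (lowest 7.13 against highest 5.89 TPM). The other neighbours, Tnfaip3 and Tnip1 and the run from Sharpin to Otulin, overlapped. All 9 genes were at 5 TPM or more in every library, a level reached by 5211 of 22028 protein-coding genes. Their median of mean levels was 18.6 TPM, against 8.03 TPM for the detected protein-coding genes. In the second quantification, made from the same libraries, 2 of the neighbouring pairs held their order in 2 of 3 libraries (Tnfaip3 over Tnip1, and Rnf31 over Rbck1), and the other 6 pairs in all 3.

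**Figure D1:**
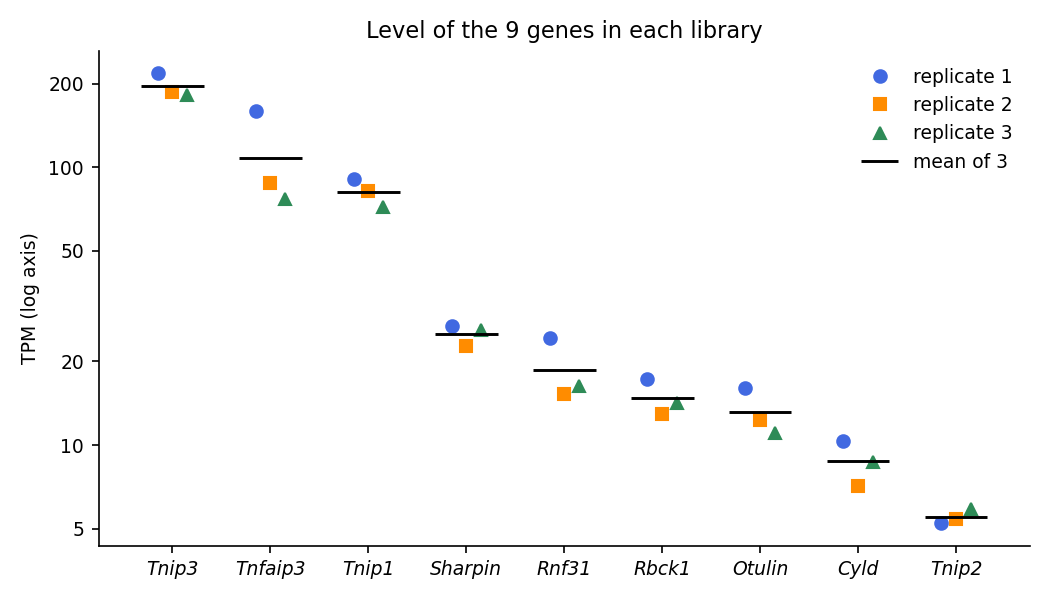
TPM on a log axis of the 9 genes in the 3 libraries, with 1 symbol per replicate and a bar at the mean of 3. Tnip3, Tnfaip3 and Tnip1 lie at 72.2 TPM and above, the other 6 genes at 26.8 TPM and below, and replicate 1 of Tnfaip3 stands at 159 TPM.

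The spread between libraries was widest for Tnfaip3. The highest library of Tnfaip3 held 2.06 times the TPM of the lowest, followed by Rnf31 at 1.59 times, and the smallest such ratio was 1.13 for Tnip2. That Tnip2 was the steadiest held on deposited TPM only: its ratio was 1.34 on rescaled TPM and 1.65 in the second quantification, where Tnfaip3 was also at 1.65. The coefficient of variation of TPM was 41.3% for Tnfaip3 and between 6.22% and 26.5% for the other members, with a median of 15.1% over the 9 genes and 13.1% over the detected protein-coding genes. Replicate 1 was the highest library for most members: 8 of the 9 genes were highest there, as were 63.2% of detected protein-coding genes. On TPM rescaled to the sum of protein-coding and long noncoding genes, 4 of the 9 genes were highest in replicate 1, beside 26.4% of detected genes, and the median coefficient of variation was 9.83%, beside 11.7%. On TMM-scaled CPM 7 of the 9 were highest in replicate 1, beside 34.9%. Tnfaip3 remained highest in replicate 1 on each scale used. Its departure from the mean of the other libraries, in log2 units, was 0.94 on TPM, 0.68 on rescaled TPM, 0.80 on TMM-scaled CPM and 0.65 on rescaled TPM of the second quantification. The median gene departed by 0.16, -0.08, -0.01 and -0.10 on these scales.

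**Figure D2:**
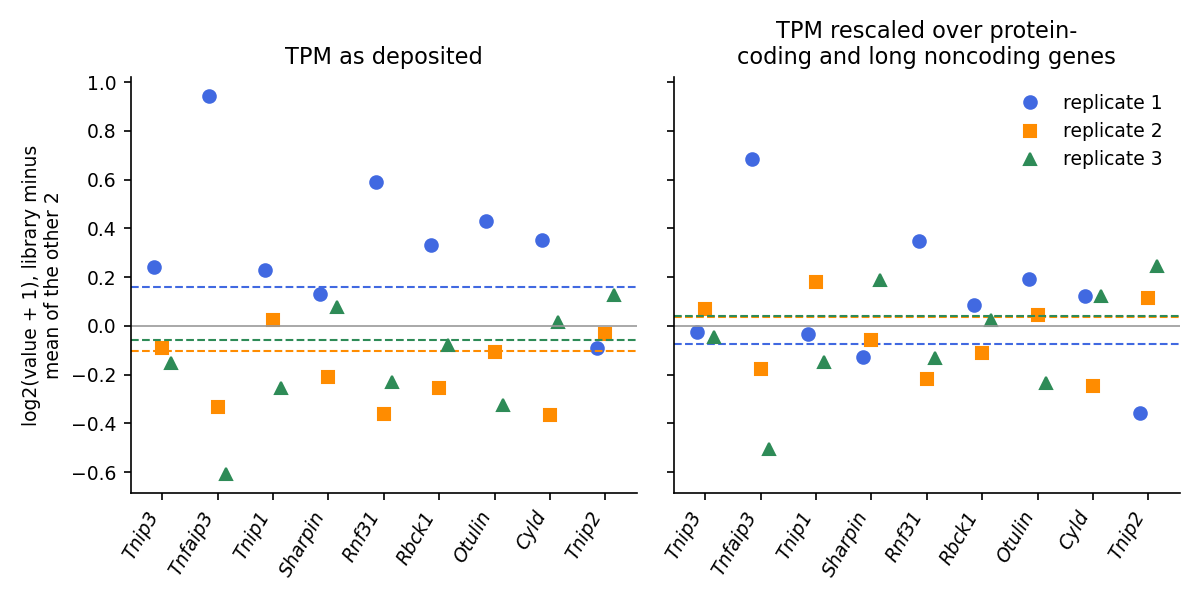
Departure of each library from the mean of the other 2 in log2(value + 1), for deposited TPM on the left and TPM rescaled to the sum of protein-coding and long noncoding genes on the right; dashed lines give the median of detected protein-coding genes in each library. Replicate 1 of Tnfaip3 lies at 0.94 and 0.68, while 8 of 9 genes on the left and 4 of 9 on the right are highest in replicate 1.

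Whether the libraries differed by more than counting error was tested for each gene by a chi-square test of counts against TMM library sizes from edgeR, with Benjamini-Hochberg adjustment. The test called 8 of the 9 members, where 72.0% of all 14568 genes tested were called. A difference beyond counting error was thus the usual state of a gene in these libraries. Sharpin was the member not called, with an adjusted p of 0.599 in the chi-square test scaled by edgeR. In the second quantification it was called too (edgeR-scaled chi-square test, adjusted p = 0.00915), so that 9 of 9 members were called, beside 82.9% of genes. Leaving out replicate 1 left 4 members called, Tnfaip3, Tnip1, Otulin and Cyld, beside 57.1% of genes. Leaving out replicate 2 left 8, beside 52.7%, and leaving out replicate 3 left 7, beside 54.0%, with Otulin lost.

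The deposited transcript tables showed that not all of the members' signal lay in protein-coding transcripts. Protein-coding transcripts held between 92.9% and 98.6% of the TPM of Tnip1, Otulin, Tnfaip3, Cyld, Rbck1 and Tnip2. They held 73.5% ± 2.66 for Rnf31, 54.4% ± 5.25 for Tnip3 and 25.0% ± 3.83 for Sharpin. In the second quantification the shares were 87.0% ± 9.31, 52.8% ± 5.08 and 32.1% ± 2.19 for the same 3 genes.

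The leading transcript of Tnip3 by TPM was Tnip3-205, annotated as a retained intron transcript of 842 nt (chromosome 6, 65590416 to 65600174). It took 37.7%, 47.9% and 42.3% of the gene's TPM in the 3 libraries and 44.7% ± 4.97 in the second quantification. The coding Tnip3-207 took 34.3% ± 2.72 and the coding Tnip3-201 took 19.8% ± 3.95. Both Tnip3-205 and Tnip3-201 begin at the window with the kappaB match. By expected counts the order was another: Tnip3-201 held 45.5% of the gene's counts, Tnip3-207 held 31.3% and Tnip3-205 held 18.9%. Over protein-coding transcripts Tnip3 stood at 107 ± 21.5 TPM and Tnfaip3 at 105 ± 45.2 TPM, and Tnip3 was the higher in 2 of 3 libraries. On TMM-scaled CPM, which is not divided by length, Tnfaip3 was the higher in replicates 1, 2 and 3. It stood there at 959, 611 and 496, against 561, 487 and 486 for Tnip3. The lead of Tnip3 over Tnfaip3 was therefore limited to TPM over all its transcripts together.

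Sharpin was led by Sharpin-211, a processed transcript of 395 nt at the 3′ end of the gene (chromosome 15, 76347040 to 76347693), with 64.9% ± 1.94 of the TPM and 60.2% ± 0.549 in the second quantification. The full-length coding Sharpin-201, of 1734 nt, took 24.7% ± 4.22 of the TPM. By expected counts the order was the reverse: Sharpin-211 held 19.9% of the gene's counts and Sharpin-201 held 62.2%. TPM weights a short transcript up relative to its reads. Over protein-coding transcripts Sharpin stood at 6.31 ± 1.31 TPM, below Rnf31 (13.6 ± 3.32) and Rbck1 (14.2 ± 2.34) in all 3 libraries.

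**Figure D3:**
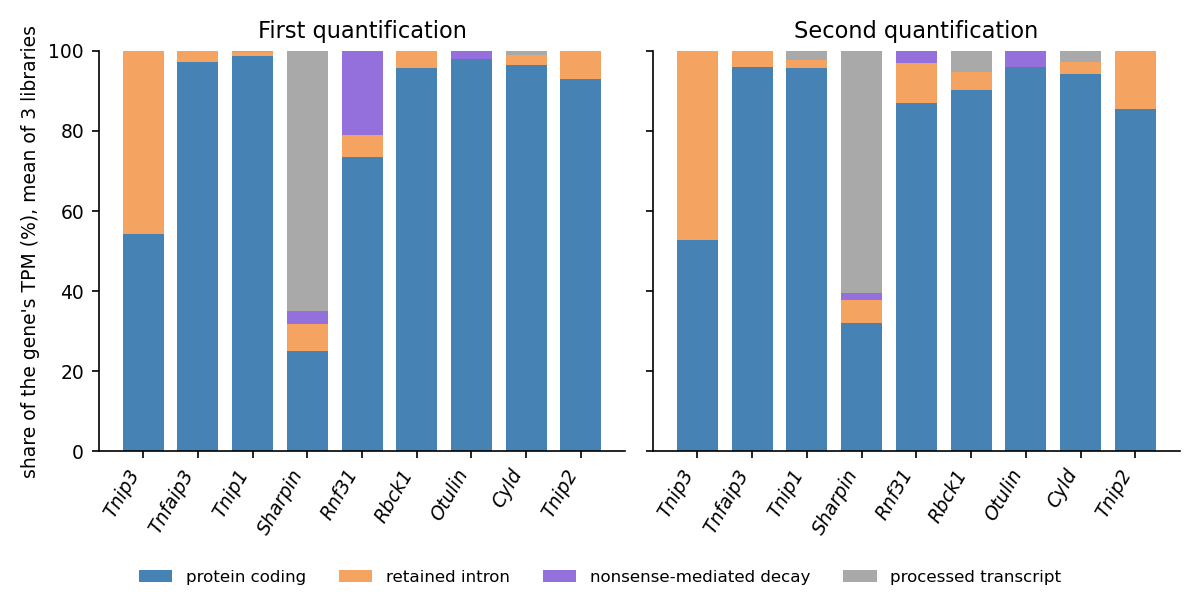
Share of each gene's TPM by annotated transcript class (percent, mean of 3 libraries), stacked to 100, in the first and the second quantification. Sharpin is mostly processed transcript (64.9% and 60.4%), Tnip3 is 45.6% and 47.2% retained intron, and the nonsense-mediated decay share of Rnf31 is 21% on the left and 3.14% on the right.

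Rnf31 was led by the coding Rnf31-201, with 68.3% ± 1.87 of its TPM and 87.0% ± 9.31 in the second quantification. The 2 quantifications also differed in Rnf31-207, a nonsense-mediated decay transcript of 552 nt (chromosome 14, 55601156 to 55603673), given 21% ± 2.42 in the first and 3.14% ± 3.36 in the second. By expected counts Rnf31-207 held only 2.76% of the gene's counts, and Rnf31-201 held 87.4%. Irf9, a gene of interferon signalling, overlaps the gene body of Rnf31 on the same strand by 123 bases and stood at 23.3 ± 4.61 TPM. Its part in the transcript shares of Rnf31 was not tested. Rbck1 was led by Rbck1-202 with 93.6% ± 4.37.

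Tnfaip3 was spread over 3 coding transcripts, Tnfaip3-201 with 67.3% ± 3.05, Tnfaip3-202 with 18.2% ± 1.2 and the 456-nt Tnfaip3-204 with 11.6% ± 2.02 of its TPM. The last of these held 0.783% of the gene's expected counts. Their shares changed little between libraries, and replicate 1, with the highest level, gave Tnfaip3-201 69.9% against 68.0% and 63.9%. Otulin came almost wholly from Otulin-201 (97.9% ± 1.56), and Tnip2 from Tnip2-202 (90.2% ± 0.526). Tnip1 was led by Tnip1-205 (56.5% ± 1.83) and Tnip1-202 (27.8% ± 1.84), a pair of coding transcripts that start at positions 54962916 and 54962910. Cyld was led by Cyld-206 (68.2% ± 4.18), with Cyld-204 at 10.5% ± 0.875. Cyld-210 took 3.87% ± 1.26 in the first quantification and 17.2% ± 1.86 in the second, so the minor transcripts of Cyld depended on the method.

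**Figure D4:**
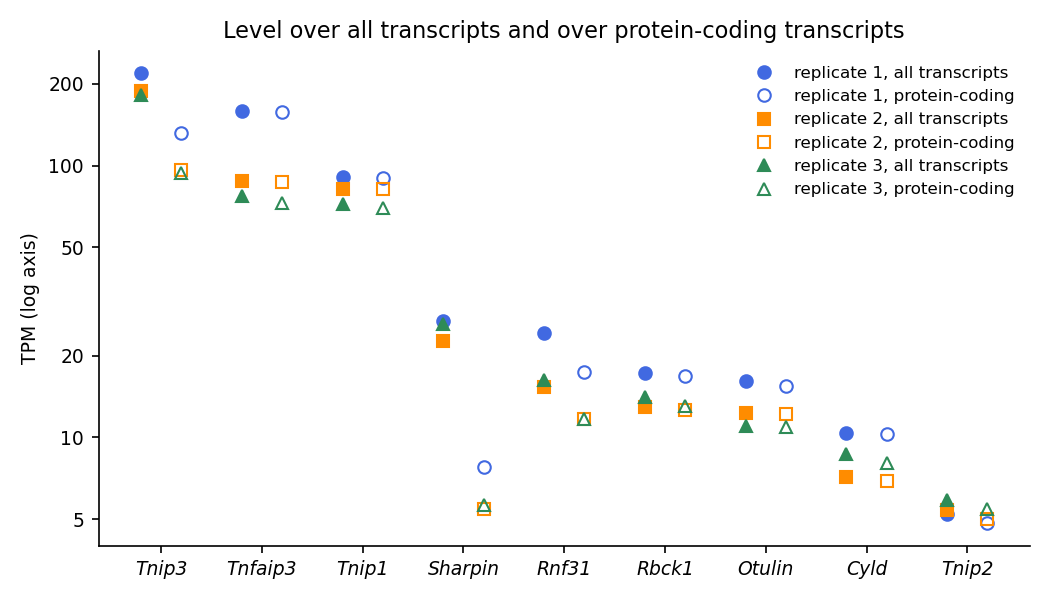
TPM on a log axis of each gene summed over all transcripts (filled symbols) and over protein-coding transcripts (open symbols), with 1 symbol per replicate. Tnip3 moves from a mean of 196 to 107 TPM and Sharpin from 25.2 to 6.31 TPM, while Tnip1 moves from 81.6 to 80.6 TPM.

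Apart from Tnip3-205, retained-intron transcripts of the members were more abundant in replicate 3, where the 4 nuclear-retained RNAs also had their highest sum. Of the 27 such transcripts of the 9 genes, 24 had a TPM above 0 in at least 1 library and 17 were highest in replicate 3. All 27 summed to 92.4, 95.3 and 100.3 TPM in replicates 1, 2 and 3, most of it Tnip3-205. Without Tnip3-205 they summed to 10.1, 5.68 and 23.4 TPM. For Tnfaip3 the retained-intron share was 1.36%, 1.2% and 5.94%, for Cyld 0.772%, 0.702% and 5.52%, and for Tnip1 0.398%, 0.219% and 2.59%. In each of these 3 genes replicate 3 stood clear of the others. The share was highest in replicate 3 in 6 of the 8 members that have the class, all but Tnip2 and Tnip3. Sharpin is counted there on nearly equal values, 7.713% in replicate 3 and 7.709% in replicate 2. In the second quantification the share was highest in replicate 3 in 7 of 8, all but Tnip3. Replicate 3 was also the highest in 75.9% of 5470 detected genes with the class in the first quantification and in 81.7% in the second. This shift was therefore shared with the other genes. Nuclear-retained RNAs moved with it (318, 175 and 1993 TPM), and their part in it was not tested. The share of Tnip3-205 was 37.7%, 47.9% and 42.3%, highest in replicate 2. Its TPM was 82.3, 89.65 and 76.9, while protein-coding transcripts of Tnip3 stood at 132, 95.9 and 93.6 TPM. The share thus depends on both, and a cause was not tested.

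**Figure D5:**
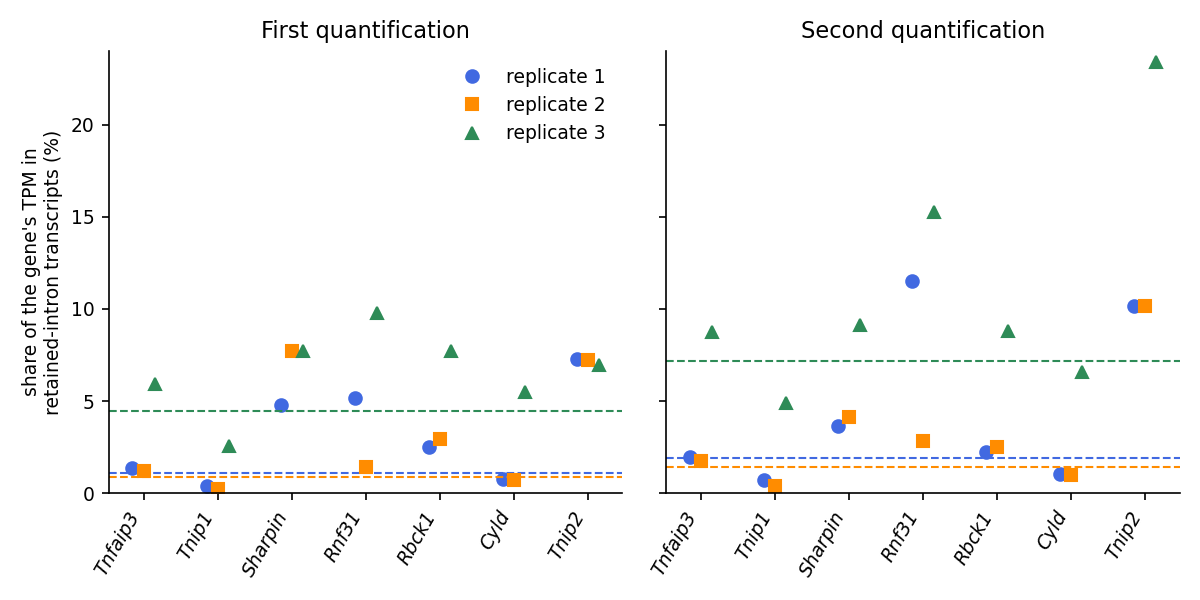
Share of each gene's TPM in retained-intron transcripts (percent) by replicate in the 2 quantifications, with dashed lines at the median of detected genes that have the class in each library. Otulin has no such transcript and Tnip3, at 45.6% and 47.2% on average, is off the scale and not drawn; on the left Tnfaip3 stands at 1.36% and 1.2% in replicates 1 and 2 and at 5.94% in replicate 3.

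The members' expected counts showed no reads divided with other genes. Expected counts were whole numbers, within 0.01, in every library for 9 of 9 members, compared with 70.7% of the 8612 detected protein-coding genes, and an expected count is whole when no read was divided between genes. This included Rnf31 with its overlap with Irf9. Overlaps on the opposite strand were with Ank over 52275 bases of Otulin (1.56 ± 0.120 TPM), with Mir7117 in Otulin, which was listed at 0, and with pseudogenes in Cyld (Gm17995, 0.07 TPM, and Gm17910, 0.12 TPM) and Tnip1 (Gm12230, 0.707 TPM). The sources used here do not say whether counting used strand. Whole counts show that reads were not divided, but not that reads of such pairs were assigned to the right gene.

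The other genes of ubiquitin signalling to NF-kappaB, a list of 46, were nearly all present: 43 reached 1 TPM and 37 reached 5 TPM in every library. The median of their mean levels was 13.3 TPM, near the 18.6 TPM of the 9 members. The chi-square test scaled by edgeR, which has no direction, called 38 of the 46, beside the 72.0% of all genes given above. On TPM 39 of the 46 were highest in replicate 1, beside 63.2% of detected protein-coding genes. The count was 21 on rescaled TPM, beside 26.4%, and 31 on TMM-scaled CPM, beside 34.9%.

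The known partners of A20 were all detected: Tax1bp1, a ubiquitin-binding adaptor, at 48.8 ± 10.4 TPM, the ring-finger protein gene Rnf11 at 13.4 ± 2.79 and the ligase gene Itch at 9.26 ± 0.731. Each was below Tnfaip3 in mean level. Spata2, which bridges CYLD to LUBAC, stood at 6.85 ± 1.53 TPM, close to Cyld itself at 8.73 ± 1.61. Of 13 other deubiquitinases, 12 were detected, led by Usp18, which removes the ubiquitin-like ISG15 (91.4 ± 40.7 TPM), Usp25 (51.9 ± 14.2) and Usp4 (19.1 ± 1.55). The lowest detected was Zranb1 at 3.00 ± 0.489, and Uchl1 was not detected. Usp18 was highest in replicate 1, with 138, 66.7 and 69.0 TPM, as were 39 of the 46 listed genes on TPM.

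Of 12 ubiquitin ligases 10 were detected. The highest were Rnf19b at 118 ± 30.9 TPM, Peli1 at 56.1 ± 19.3 and Birc3, which encodes cIAP2, at 55.1 ± 6.96, and the lowest detected was Peli2 at 1.48 ± 0.509. Peli3 and Nedd4 did not reach 1 TPM in every library. All 6 conjugating enzymes of the list were detected, from Ube2d1 at 6.04 ± 0.951 TPM to Ube2d2a at 61.2 ± 3.03, Ube2l3, which works with HOIP, at 81.3 ± 12.1 and Ube2d3 at 148 ± 26.0. All 6 readers of ubiquitin were detected, led by Sqstm1, the autophagy receptor p62, at 499.6 ± 145 TPM, then Tab2 at 29.6 ± 5.0 and Optn at 13.2 ± 3.06, with Tab3 lowest at 2.69 ± 0.466. Of the genes for ubiquitin and its activation, Ubb, which encodes a polyubiquitin, stood at 335 ± 96.6 TPM, and the activating enzyme Uba1 was lowest at 37.6 ± 3.95. Ubb repeats near-identical coding units that other genes share, so its level is uncertain.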

How the data were processed

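Cytosolic RNA of 3 libraries of 1 group was analysed. The authors deposited, per the file headers, a gene table and a first transcript table with expected counts and TPM, and a second transcript table with estimated counts and TPM (the second quantification). Per the deposited text files the build was mm10 with GENCODE M21. Which aligner and quantifiers were run is not given in the sources used here. The gene tables held 26345 rows of tRNA, spike-in and phiX, with 0.350%, 0.169% and 0.168% of counts in replicates 1, 2 and 3, which were left out of library sizes but are part of the deposited TPM.

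Values are mean ± SD of 3. Detection means 1 TPM in every library. Ratios were taken on log2(TPM + 1). For TMM, expected counts were first rounded to integers (edgeR 4.0.16, R 4.3.3). The chi-square test covered genes with at least 10 counts in 1 library, at an adjusted p of 0.05, and the script was tested on simulated data. Other steps used Python 3.11.15, numpy 2.4.6, pandas 2.3.3 and matplotlib 3.10.9.

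Named were all members, the 3 highest and the lowest detected listed genes of each role, and transcripts with at least 10% of a member's TPM. A few listed genes are not reported here. The members and lists were chosen with earlier results of these data known. Alternatives were a pseudocount of 0.1, detection at 5 TPM, no count minimum, DESeq2 1.42.0 size factors, TMM-scaled CPM, rescaled TPM, the second quantification and leaving out each library. Summing protein-coding transcripts only was added after seeing the data.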

Additional observations from a re-analysis of the deposited data

How the results depend on the processing

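Averaged over libraries, the 8 log2 differences between members kept their direction when each library was left out and with a pseudocount of 0.1. The averages also kept it in the second quantification. Within its single libraries, however, Tnfaip3 over Tnip1 and Rnf31 over Rbck1 held in only 2 of 3. Levels themselves depend on the table: the mean of Tnfaip3 was 108 TPM as deposited, 49.96 in the second quantification and 359.9 on rescaled TPM. All 9 members were lower in the second quantification. Rescaling divides by the sum over only a part of the genes, so it raises every gene by construction. With protein-coding transcripts only, chosen after seeing the data, Sharpin against Rnf31 turned to -0.99 and Rbck1 against Rnf31 to 0.064, Otulin against Rnf31 narrowed to -0.070, Tnip3 against Tnip1 narrowed to 0.40 and Tnip3 against Tnip2 to 4.13. On TMM-scaled CPM, which is not divided by length, Sharpin against Rnf31 turned to -1.61, and the values were 4.48 for Tnfaip3 against Otulin, 0.96 for Tnfaip3 against Tnip1, 0.59 for Tnip3 against Tnip1, -0.57 for Rbck1 against Rnf31 and -1.48 for Otulin against Rnf31. In the second quantification Tnip3 against Tnip1 was 1.34, Rbck1 against Rnf31 -0.011 and Otulin against Rnf31 -0.18. With a pseudocount of 0.1 Tnip3 against Tnip2 was 5.12. The chi-square test called 10485 genes in all, 15928 in the second quantification, 10456 with DESeq2 size factors and 10915 without a count minimum. The members called were 8, and 4 to 8 when a library was left out, with 4 without replicate 1, and 9 in the second quantification. Apart from the rise on rescaling, and that CPM is not divided by length, the cause of these changes was not tested. No paired analysis was possible because the labels give 1 group. The number of libraries (3, in 1 condition) limits every statement to levels and their spread. Counts were lowest for Tnip2, with 398 in replicate 1.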
